A study of Mus musculus with 49 samples.

Results

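Livers collected 16 d after a dose of acetaminophen were compared with livers collected 1 h after it, on the probe sets of a whole-genome array for which the untreated control arrays held no value in the table used here. A probe set is the group of short probes on the array that together measure 1 transcript. The members were chosen by that absence alone, and they were 36964 of 45101 probe sets, while the other 8137 held control values. Of the 36964, 27588 were assigned to 1 gene, 709 to several and 8667 to none in the annotation used, which left 15440 genes, each read from its brightest remaining probe set.

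The series followed the liver of male C57BL6/N mice (Janvier Labs) after acetaminophen (APAP, also called paracetamol), injected once into the peritoneum at 300 mg/kg in warm phosphate-buffered saline. The series held 49 arrays. The 1 h and 16 d groups had 5 arrays each, and the labels do not say whether each array was a separate mouse, so p-values measure only the spread between arrays. Mice of both groups were deprived of food overnight before the dose and had free access to food from then on, so that the 1 h livers came at the end of a fast and the 16 d livers after days of feeding. Time since the dose, feeding state and any time-of-day difference at collection therefore cannot be told apart in this contrast. The 16 d time is known from the sample labels alone, and neither the age of the mice, the hour of collection nor the feeding and vehicle of the control mice is given in the sources used here. Values are log2 expression after robust multi-array averaging (RMA), the tissue is bulk liver, and fewer cells of a type and less RNA per cell cannot be told apart.

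The fasted liver burns fatty acids under the nuclear receptor PPAR alpha, makes glucose, and responds to glucocorticoids. The fed liver makes fatty acids and cholesterol under the SREBP transcription factors. Many liver genes also follow the circadian clock through E-box sequences, and acetaminophen given in excess is turned into a reactive metabolite by cytochromes P450, which depletes glutathione and kills hepatocytes around the central vein before the tissue regenerates.

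Promoters are shown where the genes behind them carry main results below. The cholesterol synthesis genes Hmgcs1 and Idi1 were higher at 16 d, and the clock output gene Ciart was lower. Each is the 250 bases before the gene's start in RefSeq GRCm38.p6, given 5′ to 3′ on the gene's strand. Hmgcs1 lies on the plus strand at chr13:119690101-119690350, Idi1 on the plus strand at chr13:8885356-8885605, and Ciart on the minus strand at chr3:95882229-95882478. Capitals mark a CCAAT box (CCAAT, or ATTGG on the other strand) in Hmgcs1 and Idi1, a sterol regulatory element (TCACNCCAC) in Hmgcs1, and the E-box (CACGTG) in Ciart. The Ciart promoter also holds CCAAT on both strands, left in lower case, so CCAAT does not set the cholesterol promoters apart from it.
Hmgcs1: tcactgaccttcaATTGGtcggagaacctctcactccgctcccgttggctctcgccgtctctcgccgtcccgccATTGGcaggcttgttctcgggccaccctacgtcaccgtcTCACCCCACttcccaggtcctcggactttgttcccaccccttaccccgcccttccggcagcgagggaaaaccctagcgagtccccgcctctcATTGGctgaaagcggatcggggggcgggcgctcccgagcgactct
Idi1: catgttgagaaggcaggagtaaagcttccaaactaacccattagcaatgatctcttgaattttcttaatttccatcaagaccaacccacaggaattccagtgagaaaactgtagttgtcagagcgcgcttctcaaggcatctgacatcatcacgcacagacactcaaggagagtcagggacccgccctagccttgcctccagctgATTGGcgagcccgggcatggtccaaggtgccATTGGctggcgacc
Ciart: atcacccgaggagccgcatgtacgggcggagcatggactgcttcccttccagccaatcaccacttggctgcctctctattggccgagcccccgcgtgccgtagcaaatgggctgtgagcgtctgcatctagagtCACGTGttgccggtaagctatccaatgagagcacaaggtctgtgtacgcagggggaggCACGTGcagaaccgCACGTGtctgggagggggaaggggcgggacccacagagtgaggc
The Hmgcs1 window held 3 CCAAT boxes and 1 sterol regulatory element, whose first base lay 137 bases before the start. Idi1 held CCAAT boxes 45 and 14 bases before the start, and Ciart held E-boxes 116, 58 and 44 bases before it. Both strands were searched over the 300 bases from 250 before to 50 after each start. CCAAT was found in 15 of the 19 promoters on record for the measured cholesterol genes (78.9%), and in 37.4% of all 32851 promoters. CACGTG was found in 9 of 30 promoters of the measured clock genes (30%), against 7.15% of all. TCACNCCAC was found in 1 of the 19 cholesterol promoters and in 1.24% of all. Several genes have more than 1 promoter in the table, and a match is a run of letters, not a shown binding site.

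Several arrays stood apart before any comparison was made. The standard deviation (SD) of all values was 1.92 on 1 h replicate 3 and on 16 d replicate 4, against 2.04 to 2.16 on the other 23 arrays with a value for every probe set. These 2 arrays correlated with each other at 0.986, above their best correlation with their own groups (0.979 for 1 h replicate 3 and 0.971 for 16 d replicate 4). On 16 d replicate 5 the mean level of 27 immediate early genes was 8.25, against 5.80 to 6.46 on the other 16 d arrays and 6.41 to 6.84 at 1 h. That array was the highest of the 16 d arrays for 23 of the 27 genes, and by more than 1 log2 unit for 14. Socs3, a feedback inhibitor of cytokine signalling chosen after its values were seen, was at 11.35 there and at 5.72 to 9.27 on the other 16 d arrays. The mean of 22 acute phase genes was also highest on that array, at 11.17 against 9.31 to 10.18. The mean of 14 hepatocyte markers lay between 12.85 and 13.00 on all 10 arrays.

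Few genes passed the test between 16 d and 1 h. By limma's moderated test with Benjamini-Hochberg adjustment over all 45101 probe sets, 535 of the 36964 remaining probe sets were called at an adjusted p under 0.05, or 1.45%. Of these, 281 were higher at 16 d (0.760%) and 254 lower (0.687%), and 133 and 87 of them by at least 1 log2 unit (0.360% and 0.235%). Called or not, 480 probe sets (1.30%) had all 16 d arrays above all 1 h arrays and 493 (1.33%) the reverse. Among the 15440 genes, 342 were called (2.22%), 172 of them higher (1.11%) and 170 lower (1.10%). A difference of at least 1 log2 unit was reached by 79 of the higher genes (0.512% of genes) and 59 of the lower ones (0.382%). The values of the 2 groups did not overlap for 134 of the 172 and 131 of the 170, while 287 genes in all (1.86%) lay wholly above and 306 (1.98%) wholly below. The median difference over all genes was -0.01. Without the 2 narrow arrays 339 genes were called, and without 16 d replicate 5 as well 299. Without 1 h replicate 3 alone the split turned to 114 higher and 213 lower genes, and without 16 d replicate 4 alone to 297 and 161. The count fell to 210 without 1 h replicate 4, 195 without 1 h replicate 5, 215 without 16 d replicate 1 and 211 without 16 d replicate 3.

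Cholesterol synthesis genes were higher at 16 d. Of 18 measured members of the list of cholesterol synthesis and SREBP2 target genes, 12 rose, against 1.11% of all genes. None fell and 6 were not called, with a median difference of 1.68 against -0.01 over all genes. The 12 spanned most steps of the pathway, from Hmgcs1, which makes HMG-CoA, through Mvk, Pmvk and Mvd of the mevalonate branch, to Dhcr7 near its end. Leaving out 16 d replicate 5 left 10 called, and leaving out both narrow arrays left 11.

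Idi1, the isomerase that makes the second isoprenoid building block, was at 7.91, 9.04, 6.31, 9.03 and 7.15 on the 1 h arrays, and at 11.34, 11.47, 11.36, 10.79 and 11.28 on the 16 d arrays. Every 16 d array exceeded every 1 h array, and the spread at 1 h was wide. Such a lack of overlap was a condition for naming the largest rises and falls. It therefore adds no support of its own for the genes named by that rule, here or below. The difference was 3.36 ± 0.55 (standard error, SE), or 10.3-fold, with an adjusted p of 0.000883 by limma. Rdh11, a retinol dehydrogenase gene that SREBPs induce, was at 6.57, 6.93, 5.46, 7.15 and 6.68 at 1 h and at 9.28, 8.99, 9.44, 8.26 and 9.13 at 16 d. The groups did not overlap, although the narrow array was the lowest of each, and the difference was 2.46 ± 0.30 (SE, adjusted p = 3.28e-05, limma). Cyp51, which removes a methyl group from lanosterol, rose from 7.69 ± 0.62 to 10.14 ± 0.26 (SD, n = 5), with no overlap (adjusted p = 0.000496, limma). Hmgcs1, whose promoter is given above, was at 9.94, 10.24, 8.81, 10.23 and 9.29 at 1 h and at 12.11, 11.96, 12.07, 11.79 and 12.09 at 16 d. Its 16 d arrays lay within a narrow range above all 1 h arrays, and the difference was 2.30 ± 0.34 (SE, adjusted p = 0.000374, limma). The other remaining Hmgcs1 probe sets differed by 0.50 to 2.54. The other 8 called members differed by 0.85 (Mvk) to 2.05 (Mvd). Of the 6 members that were not called, Fdps and Msmo1 were read by probe sets near the bottom of the scale (2.48 and 3.01 at 1 h), and Srebf2, which encodes the transcription factor that drives the pathway, differed by 0.27.

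Genes of fatty acid synthesis were higher as well. Of 20 measured members of the fatty acid synthesis and fed-state lipogenesis list, 11 rose, against 1.11% of all genes. None fell and 9 were not called, with a median difference of 0.68. The same count of 11 was found without 16 d replicate 5, without both narrow arrays, and without all 3. Thrsp, a lipogenic nuclear protein induced by feeding and thyroid hormone, had the largest difference of any called gene: it was at 8.46, 8.59, 6.73, 8.35 and 7.85 at 1 h and at 11.46, 11.95, 11.65, 11.76 and 12.06 at 16 d. No values were shared between the groups, which differed by 3.78 ± 0.59 (SE), or 13.7-fold (adjusted p = 0.000608, limma). A second remaining Thrsp probe set differed by -0.04, so that the mean of both gave 1.87, whereas the Thrsp probe set that holds control values differed by 3.75.

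Srebf1, which encodes the transcription factor SREBP1, was at 7.95, 7.98, 6.63, 7.35 and 6.75 at 1 h and at 9.97, 9.56, 9.94, 9.35 and 9.40 at 16 d. All 16 d arrays were higher, by 2.31 ± 0.34 on average (SE, adjusted p = 0.00027, limma). Acly, which makes cytosolic acetyl-CoA from citrate, rose from 9.23 ± 0.30 to 11.12 ± 0.24 (SD, n = 5), with no overlap (adjusted p = 6.11e-06, limma). Its 5 other remaining probe sets differed by 0.17 to 2.01. Aacs, which activates acetoacetate for lipid synthesis, rose by 1.90 ± 0.28 (SE, adjusted p = 0.000351, limma), and by 1.04 when its remaining probe sets were averaged. Acaca, the acetyl-CoA carboxylase of fatty acid synthesis, rose by 1.40 ± 0.22 (SE, adjusted p = 0.000684, limma), and by 0.82 when its remaining probe sets were averaged. The remaining called members were Pklr, Acacb, Pgd, Me1, Tkt and Slc25a1, with differences of 0.56 to 1.75. The desaturase gene Fads2 and the elongase gene Elovl5 were not called, at -0.02 and 0.03. Fasn, the fatty acid synthase gene, had no remaining probe set of its own.

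Fat oxidation genes moved the other way. Of 25 measured members of the PPAR alpha and fasting-induced fat oxidation list, 10 fell, against 1.10% of all genes. None rose and 15 were not called, with a median difference of -0.65. Without 16 d replicate 5 the number that fell was 8, without both narrow arrays 8, and without all 3 it was 7. Cyp4a31, a fatty acid omega-hydroxylase gene, had the largest fall: it was at 8.83, 9.28, 10.04, 9.27 and 9.81 at 1 h and at 6.23, 5.53, 6.30, 5.59 and 6.10 at 16 d. The groups were far apart, with a difference of -3.50 ± 0.47 (SE), an 11.3-fold lower level (adjusted p = 9.92e-05, limma). It belongs to a family of near-identical genes, so cross-hybridisation from its neighbours cannot be told apart from its own signal.

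Vnn1, a pantetheinase and a PPAR alpha target, was at 7.85, 9.25, 8.26, 8.99 and 9.24 at 1 h and at 5.77, 5.59, 5.94, 3.96 and 5.68 at 16 d. All 16 d arrays were lower, the narrow one by most, and the difference was -3.33 ± 0.53 (SE, adjusted p = 0.000655, limma). Acot1, a cytosolic acyl-CoA thioesterase, fell from 9.79 ± 0.58 to 6.70 ± 0.66 (SD, n = 5) with no overlap (adjusted p = 0.00133, limma). Cpt1a, the gate of fatty acid entry into mitochondria, fell from 11.54 ± 0.23 to 10.47 ± 0.26 (SD, n = 5), with no overlap (adjusted p = 0.00759, limma). The call was lost when the most variable Cpt1a probe set was used (-0.96, adjusted p = 0.151, limma). Angptl4, a secreted inhibitor of lipoprotein lipase, fell by 1.81 on the log2 scale from 4.44 to 2.64, a level among the lowest 10% of values (under 2.87). Its brighter probe set that holds control values differed by -0.86 and was not called (adjusted p = 0.111, limma). The other 5 called members, Ehhadh, Plin5, Hadhb, Acadl and Acadvl, differed by -1.80 to -0.42. Ppara itself differed by -0.50 and was not called. Retsat, which saturates retinol and is a PPAR target in fat tissue, was outside the list and fell by 1.83 on the log2 scale, from 12.22 ± 0.34 to 10.39 ± 0.25 (SD, n = 5, adjusted p = 9.13e-06, limma).

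Of 27 measured members of the gluconeogenesis and insulin-repressed list, 1 rose (Onecut1) and 2 fell (Igfbp2 and Gys2), with a median of -0.24. These were 11.1% of the list, against the 2.22% called among all genes. Pck1 and Ppargc1a, the cytosolic PEPCK and the coactivator of the fasting response, differed by -0.56 and -0.85 and were not called, and Irs2, an insulin receptor substrate gene, by 0.69 (0.44 without 16 d replicate 5). Onecut1, a hepatocyte transcription factor gene, was higher by 1.21 ± 0.28 (SE, adjusted p = 0.0223, limma), and lost its call without 1 h replicate 3, 1 h replicate 5, 16 d replicate 1 or 16 d replicate 5 (differences of 1.04 to 1.21, adjusted p 0.0571 to 0.0894 by limma). Igfbp2, which encodes a binding protein for insulin-like growth factors, was lower by 0.72 on the log2 scale and Gys2, the liver glycogen synthase gene, by 0.78, but leaving out any of 7 and 8 of the 10 arrays ended the respective call (adjusted p up to 0.0689 and 0.117 by limma). For Igfbp2 those were all but 1 h replicates 1 and 2 and 16 d replicate 3, and for Gys2 all but 1 h replicate 3 and 16 d replicate 5. Of 16 measured autophagy and FOXO target genes, 1 rose and 1 fell, against 1.11% and 1.10% of all genes. Map1lc3a, which encodes an autophagosome membrane protein, fell by 0.84 on the log2 scale, and Bcl6, a transcriptional repressor gene, rose by 1.02. The Bcl6 call was lost without 1 h replicate 4, 16 d replicate 2 or 16 d replicate 3 (0.86 to 0.96, adjusted p 0.0507 to 0.0602 by limma).

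Of 19 measured glucocorticoid-responsive genes, 3 fell (Dusp1, Fkbp5 and Angptl4), against 1.10% of all genes. None rose, and the median was -0.41. Without 16 d replicate 5, 7 fell, and without 16 d replicate 4, 4 fell and 1 rose. On 16 d replicate 5 the mean level of the list was 8.95, within the 1 h range of 8.53 to 8.99, while the other 16 d arrays lay at 7.34 to 8.09. Fkbp5, a chaperone gene induced by the glucocorticoid receptor, was at 8.57, 8.69, 8.58, 9.21 and 8.90 at 1 h and at 6.15, 7.31, 6.33, 6.97 and 7.43 at 16 d. The groups did not overlap, and the difference was -1.95 ± 0.23 (SE, adjusted p = 3.08e-05, limma). A second Fkbp5 probe set differed by -0.18, so that the mean of both gave -1.07. The metallothionein Mt2, an acute phase and glucocorticoid-responsive gene chosen after its values were seen, was not called (-2.54, adjusted p = 0.0921, limma), with 16 d values of 12.91 on replicate 5 and 6.49 to 11.94 on the others.

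Of 27 measured immediate early genes, 2 fell (7.41% of the list, against 1.10% of all genes) and none rose. The median was -0.01, and without 16 d replicate 5 the number that fell was 4. Jun, a subunit of the AP-1 transcription factor, was at 9.52, 9.45, 9.38, 9.71 and 9.20 at 1 h and at 5.89, 6.33, 6.45, 7.20 and 8.56 at 16 d. Even the highest 16 d array, replicate 5, was below all 1 h arrays, and the difference was -2.57 ± 0.36 (SE, adjusted p = 0.000167, limma). Dusp1, a phosphatase gene that shuts down MAP kinases, fell from 11.20 ± 0.24 to 8.96 ± 0.99 (SD, n = 5, adjusted p = 0.00302, limma) with no overlap. Myc, a growth-promoting transcription factor gene, was at 6.36, 6.52, 6.98, 6.49 and 10.75 at 16 d and at 5.93 to 6.43 at 1 h. It was not called, and its difference of 1.18 became 0.34 without 16 d replicate 5. Of the 22 measured acute phase genes, 1 fell, against 1.10% of all genes, and none rose. Lbp, which encodes a plasma protein that binds bacterial lipopolysaccharide, fell by 1.11 on the log2 scale (adjusted p = 0.002, limma). The number of acute phase genes that fell was 4 without 16 d replicate 5 and 2 without 16 d replicate 4. Without 1 h replicate 3, 2 fell and 1 rose.

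Several output genes of the circadian clock were lower at 16 d. Of 21 measured clock and output genes 4 fell, against 1.10% of all genes, and none rose. The median was -0.10, and 3 fell without 16 d replicate 5 or without both narrow arrays. Ciart, a repressor within the clock whose E-box promoter is given above, was at 6.68, 7.33, 7.02, 7.80 and 7.73 at 1 h and at 5.28, 5.95, 4.66, 5.57 and 4.90 at 16 d. No 16 d array reached the 1 h range, and the difference was -2.04 ± 0.31 (SE, adjusted p = 0.000407, limma). Tef, a transcription factor of the D-box family, fell by 1.23 ± 0.19 on the log2 scale (SE, adjusted p = 0.000609, limma), and by 0.72 when its 3 remaining probe sets were averaged. Alas1, the rate-limiting enzyme of haem synthesis, fell from 11.44 ± 0.11 to 9.93 ± 0.74 (SD, n = 5, adjusted p = 0.00266, limma). Dbp, another D-box factor, differed by -2.41 (adjusted p = 0.0464, limma), with overlapping groups and a 16 d spread from 4.79 to 8.61. The Dbp call was lost without each single array other than 16 d replicate 2 (-2.55 to -2.03, adjusted p 0.0549 to 0.134 by limma). The core genes Per1, Nr1d1 and Arntl differed by -0.53, 0.10 and 0.94 and were not called, though Arntl passed without 16 d replicate 2 (1.11, adjusted p = 0.0432, limma).

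Between these times the lists took different courses. The fatty acid synthesis list had a mean level of 7.72 ± 0.19 at 1 h, 7.81 ± 0.16 at 12 h, 7.81 ± 0.15 at 1 d, 7.79 ± 0.30 at 2 d and 8.69 ± 0.17 at 16 d (SD, n = 5). The 16 d arrays (8.39 to 8.81) all lay above the arrays of the other 4 times, whose highest was 8.28 at 2 d. The cholesterol list was at 7.21 ± 0.41, 7.53 ± 0.50, 8.16 ± 0.28, 7.83 ± 0.51 and 8.71 ± 0.26 (SD, n = 5) at these times, and the highest arrays of 1 d (8.49) and 2 d (8.68) reached into the 16 d range of 8.24 to 8.87. The PPAR alpha list was at 9.55 ± 0.25 at 1 h, 8.89 ± 0.43 at 2 d and 8.56 ± 0.18 at 16 d (SD, n = 5). Thrsp was at 7.26, 7.11 and 7.80 at 12 h, 1 d and 2 d, with an SD of 2.06 (n = 5) at 2 d, whereas Cyp51 had reached 10.03 at 1 d. The immediate early list was highest at 12 h, at 7.97 ± 0.30, against 6.65 ± 0.18 at 1 h and 6.53 ± 0.99 at 16 d (SD, n = 5), where the wide spread came with replicate 5. The clock list was at 7.10 ± 0.20 at 1 h, 7.33 ± 0.18 at 12 h and 6.74 ± 0.18 at 16 d (SD, n = 5). No test of these courses was made.

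For some of the called genes another probe set holds control values, which places both groups against untreated liver. Of the 342 called genes, 87 had such a probe set, and it was called in the same direction for 50, in the opposite direction for 0, and had the same sign for 85. Among the named genes 19 had such a probe set, and only some of them are given here. Thrsp was at 6.80 ± 0.86 in controls, 7.14 ± 0.70 at 1 h, 10.78 ± 0.83 at 8 d and 10.89 ± 0.26 at 16 d (SD, n = 5). Idi1 was at 7.00 ± 1.02 in controls, 6.14 ± 1.85 at 1 h and 10.21 ± 0.14 at 16 d (SD, n = 5). Cyp51 was at 5.66 ± 1.00 in controls, 5.13 ± 1.23 at 1 h and 8.38 ± 0.37 at 16 d (SD, n = 5). Vnn1 was at 10.99 ± 0.58, 10.50 ± 0.49 and 7.44 ± 0.62 (SD, n = 5) in the same order. For these 4 genes the control mean lay nearer to the 1 h mean than to the 16 d mean. Jun differed in this respect, at 7.66 ± 0.48 in controls, 10.96 ± 0.22 at 1 h and 7.93 ± 0.99 at 16 d (SD, n = 5), so that its control mean lay nearer to 16 d. So did Angptl4 of the PPAR alpha list, at 8.88 ± 0.45 in controls, 10.56 ± 0.24 at 1 h and 9.71 ± 0.48 at 16 d (SD, n = 5). Fkbp5 was at 9.43 ± 0.81, 10.29 ± 0.26 and 8.02 ± 0.60 (SD, n = 5), with the control mean between the other two. Onecut1 was at 7.54 ± 1.09 in controls, 3.91 ± 0.25 at 1 h and 6.08 ± 0.90 at 16 d (SD, n = 5), below control at both times. Bcl6 was at 4.92 ± 0.67, 7.25 ± 0.47 and 8.84 ± 0.47 (SD, n = 5), above control at both.

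Other large differences fell outside these groups. Serpina4-ps1, a serpin pseudogene, was at 6.27, 6.03, 5.94, 5.05 and 5.97 at 1 h and at 8.87, 9.03, 8.75, 9.15 and 9.11 at 16 d. The groups did not overlap, its difference was 3.13 ± 0.36 (SE, adjusted p = 1.94e-05, limma), and 2 further remaining probe sets differed by 2.97 and 3.46. Nudt7, a peroxisomal hydrolase of coenzyme A, rose from 10.57 ± 0.28 to 12.90 ± 0.09 (SD, n = 5, adjusted p = 0.00027, limma), and Nat8f5, an N-acetyltransferase family gene, by 2.10 ± 0.33 (SE, adjusted p = 0.000685, limma). The other remaining Nudt7 probe sets differed by 0.96 to 2.51. Grk5, a kinase of G protein-coupled receptors, rose by 2.09 ± 0.30 (SE, adjusted p = 0.00021, limma), but by 1.21 when its probe sets were averaged. Efna1, an ephrin ligand, rose by 2.34 ± 0.53 (SE, adjusted p = 0.0181, limma), and lost the call without 1 h replicate 3 (2.12, adjusted p = 0.0537, limma) or 16 d replicate 5 (1.96, adjusted p = 0.0635, limma). Among the falls, St3gal5, which makes the ganglioside GM3, went from 10.75 ± 0.17 to 8.71 ± 0.54 (SD, n = 5, adjusted p = 2.97e-05, limma). Fam107a, an actin-associated stress-response gene, fell by 2.55 on the log2 scale (by 1.49 with its probe sets averaged), and lost its call without 1 h replicate 4 (-2.33) or 1 h replicate 5 (-2.05), at adjusted p of 0.052 and 0.0532 by limma. Fmo2, a flavin monooxygenase gene, fell by 1.81 on the log2 scale, and lost its call without 1 h replicate 5 (-1.61, adjusted p = 0.0512, limma). Its other remaining probe sets differed by -1.70 to -0.18. The Fmo2 probe set that holds control values differed by -0.79 and was not called (adjusted p = 0.141, limma).

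Of 18 measured drug-metabolising P450 genes, Cyp2c70 and Cyp2u1 rose and Cyp2c38 fell, which is 16.7% of the list against 2.22% of all genes. A fit of 1 h and 16 d alone called 3 P450 genes higher and 3 lower. Cyp2c70, which makes muricholic acids in mice, was higher by 2.10 but lost its call without 1 h replicates 2, 4 or 5 or 16 d replicates 1, 2 or 3 (1.94 to 2.13, adjusted p 0.0545 to 0.081 by limma). Cyp2u1 rose by 1.09 ± 0.21 (SE), and by 0.65 with its probe sets averaged. Cyp2c38 fell by 1.05 ± 0.20 on the log2 scale (SE, adjusted p = 0.00336, limma). Of 21 measured NRF2 targets, which answer oxidative stress, 3 were called (14.3%). Abcc3, an export pump for conjugates, fell by 1.16 ± 0.19 on the log2 scale (SE, adjusted p = 0.000869, limma). Gstm3, a glutathione transferase gene, was higher by 2.02 and Mafg, a partner of NRF2, lower by 0.60 on the log2 scale. The Gstm3 call was lost without each array except 1 h replicate 1 and 16 d replicate 4 (1.83 to 2.10, adjusted p 0.0522 to 0.0974 by limma), and the Mafg call without each except 1 h replicates 1 and 3 and 16 d replicate 5 (-0.62 to -0.50, adjusted p 0.0767 to 0.141 by limma). Sult1a1, a sulfotransferase gene, was lower by 0.64 on the log2 scale, and its call was lost without each array except 1 h replicate 3 and 16 d replicate 5 (-0.67 to -0.51, adjusted p 0.0689 to 0.113 by limma). None of the 23 ATF4 targets, 17 p53 targets or 18 heat shock genes was called by limma. An unadjusted p under 0.05 was held by 5, 3 and 5 of them, each a larger share than the 11.2% of all genes. Without 16 d replicate 5, 1 p53 target fell.

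Among 24 measured genes of the unfolded protein response, 1 rose, against 1.11% of all genes. Ern1, the sensor IRE1, rose by 1.18 ± 0.13 (SE, adjusted p = 1.57e-05, limma), with no overlap between groups. Its other 3 remaining probe sets differed by -0.13 to -0.06, and their average over all 4, at 0.22, was not called (adjusted p = 0.161, limma). Of 19 bile acid genes, Abcb4, the phospholipid flippase of the bile canaliculus, was at 10.89 to 11.15 at 1 h and at 9.47 to 10.24 at 16 d, with a difference of -1.17 ± 0.14 (SE, adjusted p = 2.97e-05, limma). The groups did not overlap. Abcc3 was the other of the 2 bile acid genes that fell, against 1.10% of all genes. A fit of 1 h and 16 d alone called 2 bile acid genes higher and 2 lower.

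Hepatocyte zonation and sex-biased genes held called members. Of 19 pericentral genes, 1 rose, against 1.11% of all genes. Nrn1, which encodes neuritin, rose by 0.85 ± 0.13 (SE, adjusted p = 0.000351, limma). The fit of 1 h and 16 d alone called 4 pericentral genes higher. Of 16 periportal and urea cycle genes, 3 fell, against 1.10% of all genes, and none rose. The fit of 1 h and 16 d alone called 5 periportal genes lower. Asl, the argininosuccinate lyase of the urea cycle, was at 12.49, 12.58, 12.56, 12.57 and 12.60 at 1 h and at 11.58, 11.54, 11.46, 11.38 and 11.53 at 16 d. Both groups were tight and lay apart, at -1.06 ± 0.20 (SE, adjusted p = 0.00355, limma). Hsd17b13, a lipid droplet enzyme, fell by 0.54 on the log2 scale (adjusted p = 0.0128, limma), and the average of its probe sets, lower by 0.35, was not called (-0.35, adjusted p = 0.0646, limma). Ass1, the preceding enzyme of the urea cycle, was read from a probe set at 6.76 and 5.37 with overlapping groups, and its call was lost without 1 h replicates 4 or 5 or 16 d replicates 1 or 5 (-1.32 to -1.15, adjusted p 0.0507 to 0.0652 by limma). Of 13 male-biased genes, 3 rose, against 1.11% of all genes: Nudt7, Egfr and Cyp2u1. The fit of 1 h and 16 d alone called 5 male-biased genes higher. Egfr, the epidermal growth factor receptor of hepatocytes, rose from 10.13 ± 0.30 to 11.71 ± 0.10 (SD, n = 5, adjusted p = 0.000916, limma), while the mean of its 7 remaining probe sets gave 0.77. Of 12 female-biased genes, 1 rose and 1 fell, against 1.11% and 1.10% of all genes. Lifr, a cytokine receptor gene, was higher by 0.86 and Fmo2 was lower. The Lifr call was lost without 1 h replicates 1, 2 or 4 or 16 d replicates 1, 2, 3 or 4 (0.80 to 0.86, adjusted p 0.0604 to 0.104 by limma). Of 18 hepatocyte transcription factor genes, 2 rose and 1 fell, against 1.11% and 1.10% of all genes. Zbtb20 and Onecut1 rose, and Hnf4a was lower by 0.41 on the log2 scale. Hnf4a lost its call without 1 h replicates 2, 3, 4 or 5 or 16 d replicates 1 or 3 (-0.42 to -0.36, adjusted p 0.0511 to 0.121 by limma), and Zbtb20, a repressor gene, rose by 0.72 ± 0.16 (SE, adjusted p = 0.0141, limma).

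No gene passed among 29 DNA replication, 29 mitosis, 29 ribosome biogenesis, 30 ribosomal protein and 55 oxidative phosphorylation genes by limma, of which 4, 1, 4, 2 and 2 had an unadjusted p under 0.05, against 11.2% of all genes. The 29 mitosis genes had a median difference of 0.11. No marker passed for Kupffer cells (11 measured), neutrophils (6), T and NK cells (12), dendritic cells (11), endothelium (21) or cholangiocytes (10), with 1, 1, 0, 2, 1 and 0 at an unadjusted p under 0.05. Single markers passed in other lists, while 2.22% of all genes were called. Mpeg1, a pore-forming protein gene of macrophages, rose from 8.12 ± 0.14 to 8.93 ± 0.29 (SD, n = 5, adjusted p = 0.0176, limma), and lost the call without 16 d replicate 2 (0.73, adjusted p = 0.0655, limma). It was 1 of 15 recruited monocyte markers, whose mean level was 5.26 to 5.67 on the 1 h arrays and 5.22 to 5.83 on the 16 d arrays. Ighm, the immunoglobulin heavy chain mu, rose by 1.05 ± 0.15 (SE, adjusted p = 0.00027, limma), while its 10 other remaining probe sets differed by -0.14 to 0.91 and the most variable one by -0.075. The average of all gave 0.26 and was not called (adjusted p = 0.395, limma). The mean level of its list of 12 B and plasma cell markers was 4.67 to 4.85 at 1 h and 4.80 to 4.97 at 16 d.

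Col3a1, a fibrillar collagen gene of stellate cells, was higher by 1.53 with overlapping groups (adjusted p = 0.0434, limma). It lost its call without each array except 1 h replicate 5 and 16 d replicate 4 (1.41 to 1.55, adjusted p 0.0747 to 0.137 by limma), and none of the other 25 stellate markers passed. With its probe sets averaged the difference was 1.01 (adjusted p = 0.123, limma), and the mean of the 26 markers was 5.86 to 6.23 at 1 h and 5.96 to 6.33 at 16 d. Lpl, lipoprotein lipase, was higher by 1.32 with overlapping groups (adjusted p = 0.0255, limma), a call lost without 1 h replicates 2, 3 or 4 or 16 d replicates 2 or 3 (1.12 to 1.29, adjusted p 0.068 to 0.102 by limma). The 9 markers of lipid-associated macrophages, among which it was listed, had a mean of 6.33 to 6.56 at 1 h and 6.55 to 6.86 at 16 d. Col3a1 was far higher at 2 d, at 11.15, than at either time compared. Cxcl1, a neutrophil-attracting chemokine, was at 8.70, 8.34, 9.14, 11.84 and 12.45 at 16 d and at 6.98 to 8.73 at 1 h. The groups overlapped, 16 d replicates 4 and 5 stood above the rest, and the difference of 2.48 (adjusted p = 0.0401, limma) fell to 0.96 (adjusted p = 0.509, limma) without 1 h replicate 3 and 16 d replicates 4 and 5. Its call was also lost without 1 h replicates 2, 3, 4 or 5 or 16 d replicates 4 or 5 alone (1.89 to 2.54), and with its probe sets averaged (1.64, adjusted p = 0.122, limma). The mean of 6 neutrophil markers was 5.33 to 6.00 at 1 h and 5.38 to 6.78 at 16 d. Il13ra1, a receptor chain for interleukin 13, rose by 0.90 ± 0.19 (SE, adjusted p = 0.0115, limma). Its other remaining probe sets differed by -0.04 to 1.18. It was listed among 28 measured chemokine, cytokine and receptor genes, of which 3 rose, against 1.11% of all genes. Of 28 interferon-induced genes, 2 rose, against 1.11% of all genes. Bst2, an antiviral tether, and Gbp6, a guanylate-binding protein gene, were higher by 0.60 and 1.39. Bst2 lost its call without 16 d replicate 2 (0.56, adjusted p = 0.051, limma), and Gbp6 without 1 h replicates 1 or 3 or 16 d replicates 1, 3 or 5 (1.11 to 1.34, adjusted p 0.052 to 0.0683 by limma). Without 16 d replicate 4, 4 interferon-induced genes rose, in a fit where more of all genes rose as well. The part of immune cell content in these differences was not tested. No marker passed among 8 erythroid, 5 platelet, 11 pancreas, 6 adipose, 11 muscle and 7 gut genes, of which 2, 0, 0, 1, 0 and 0 had an unadjusted p under 0.05 by limma.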

How the data were processed

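RNA of mouse liver was hybridised to Affymetrix Mouse Genome 430 2.0 arrays, per the labels' protocols. The deposited values are log2 expression, made by the authors with RMA and oligo 1.52.0 per the submitters' processing notes, and they were used unchanged. Groups came from the titles. Differences were tested with limma 3.58.1 (R 4.3.3; functions lmFit, contrasts.fit and eBayes) over the 25 arrays with a value for all 45101 probe sets (1 h, 12 h, 1 d, 2 d and 16 d), with 1 mean per group, a two-sided test and Benjamini-Hochberg adjustment over all probe sets. Only the 36964 without control values were counted. No filter on low values was applied. Gene names came from the platform annotation, updated to RefSeq GRCm38.p6. A gene was read from its remaining probe set with the highest mean. The members and gene lists were chosen with earlier results of these data known. Genes named are the 12 largest rises and falls among called genes whose groups did not overlap, up to 4 called members per list, and a fixed panel. The precision is limited by the number of arrays. The fit was tested on simulated data. Left out were the arrays without complete values, except for levels at 8 d and in controls. Same-numbered arrays of 1 h and 16 d were not paired: their deviations correlated at 0.12, 0.33, -0.52, -0.55 and 0.34.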

Additional observations from a re-analysis of the deposited data

Results flagged for a closer look

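In 34 of 230 series of 5 arrays (named genes, list means and the SD of an array, within 1 h or within 16 d), 1 array lay far from the other 4 by Dixon's ratio, which chance gives in about 5% of series; lists and genes share arrays and members, so these are not independent.

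On 16 d replicate 4, the narrow array, most were low. Idi1 was at 10.79 (others 11.28 to 11.47), Vnn1 at 3.96 (5.59 to 5.94), Fmo2 at 3.97 (4.56 to 4.77), Abcc3 at 8.05 (9.12 to 9.43), Sult1a1 at 10.66 (11.27 to 11.45), Hsd17b13 at 10.80 (11.18 to 11.27) and Col3a1 at 7.10 (8.22 to 8.56). List means there were 8.39 for fatty acid synthesis (8.72 to 8.81), 8.24 for cholesterol synthesis (8.76 to 8.87), 8.24 for PPAR alpha (8.59 to 8.70), 8.17 for P450 genes (8.33 to 8.38), 9.92 for conjugation enzymes (10.26 to 10.36), 7.55 for hepatocyte transcription factors (8.08 to 8.13) and 5.50 for erythroid markers (5.69 to 5.75). Pancreas and muscle markers were high there, at 4.65 (4.22 to 4.34) and 4.56 (4.29 to 4.36).

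On 16 d replicate 5 all were high. Efna1 was at 9.57 (7.35 to 7.93) and Myc at 10.75 (6.36 to 6.98). The list means were 8.25 for immediate early genes (5.80 to 6.46), 7.08 for p53 targets (6.24 to 6.36), 8.89 for gluconeogenesis (8.47 to 8.56), 8.89 for the growth hormone axis (7.95 to 8.18), 4.93 for cholangiocyte markers (4.57 to 4.59) and 6.92 for chemokines and cytokines (5.91 to 6.10).

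On 1 h replicate 3, list means were 7.93 for autophagy genes (others 8.30 to 8.45), 10.62 for periportal genes (10.85 to 10.94) and 4.56 for T and NK cell markers (4.33 to 4.39). The SD over all remaining values was 1.92 on 1 h replicate 3 (2.07 to 2.10) and 1.92 on 16 d replicate 4 (2.10 to 2.11). Elsewhere, Serpina4-ps1 was at 5.05 on 1 h replicate 4 (5.94 to 6.27), Alas1 at 8.65 on 16 d replicate 3 (10.00 to 10.42) and Tef at 8.62 on 16 d replicate 2 (7.76 to 7.91). Heat shock genes averaged 8.13 on 1 h replicate 1 (8.59 to 8.77), and adipose markers 6.10 on 16 d replicate 2 (6.22 to 6.25).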

How the results depend on the processing

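With 5 arrays a group, calls depended on the arrays and the model. The 535 called probe sets and 342 genes became 1987 and 1116 with array weights and 943 and 609 after quantile normalization, and 310 to 769 probe sets and 195 to 458 genes when single arrays were left out; the cause was not tested. The replicate block, with replicate number as pairing, gave 565 probe sets and 358 genes, and ended the calls of Sult1a1 and Cxcl1 (adjusted p = 0.063 and 0.0587, limma). Without 1 h replicate 3 and 16 d replicates 4 and 5, chosen after seeing the data, 486 probe sets and 299 genes were called. All other alternatives that kept every array left both counts within 1.5 times of these. The counts of single lists moved further. A fit of 1 h and 16 d alone took the P450 list from 3 to 6 called members and the pericentral list from 1 to 4. Of the 61 named called genes, 40 kept their call without each of the 10 single arrays. Ighm turned to -0.075 when its most variable probe set was used. No other named gene turned its direction while called. Dim probe sets are near the array's background, where a difference is compressed.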
